A study of Rattus norvegicus with 10 samples.

Results

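Cytokines and chemokines were described as 37 genes of small secreted proteins that move and instruct immune cells, out of 14217 genes read on the array. Each gene was represented by the probe set with the highest mean signal among those annotated to it alone, and all 37 were found by this rule. No filter on signal was applied. The mean log2 signal was at or above 5.15 in 26 of them, and under this value, below which the dimmest 40% of all probe sets lie, in the other 11, which were Cxcl6, Ccl19, Ccl20, Il1a, Il6, Il10, Tnf, Lif, Osm, Csf2 and Csf3. Near the background of an array a difference is compressed, and a small value for these dim genes does not show that they were equal.

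The tumours arose in the mammary glands of outbred female Sprague-Dawley rats after 100 mg/kg of DMBA, a carcinogenic hydrocarbon, given once by mouth. The late group held 5 total tumours taken at 19 weeks of age, and the early group held needle biopsies of the same 5 tumours, each 0.7 cm by 2.5 mm, taken at 12 weeks when the tumour measured 2 cm3. All were of histological grade II per the series text and had no further treatment, and every array therefore came from a tumour of the same carcinogen, with no normal gland. Whether any of the 5 tumours shared a rat is not stated. In the series text the late samples are trucuts, but each sample is labelled as a total tumour, and that name is used. Age, way of sampling and the run of array names went with the group and cannot be told apart from it. Values are given in the order of tumours 31D3, 32D1, 37I1, 50I1 and 52I4 throughout, and each is the log2 signal of 1 probe set on 1 array after RMA, the authors' normalization across arrays.

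Chemokines bind receptors on leukocytes and draw them along a gradient. CXC chemokines that bind Cxcr2 attract neutrophils, the interferon-induced ligands of Cxcr3 attract activated T and NK cells, Ccl2 and its relatives attract monocytes, and ligands of Ccr7 and Cxcr5 organise lymphoid tissue. Tumours draw macrophages and lymphocytes through such signals, which are made by tumour epithelium, stroma and the infiltrating leukocytes themselves. In a bulk sample, fewer cells of a type and less RNA per cell cannot be told apart.

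All 7 of 7 mammary epithelium markers were measured. Their mean log2 signal per array was 12.30 to 12.62 in the total tumours and 12.16 to 12.45 in the biopsies. Every array thus carried mammary epithelium, and with no normal gland these values do not tell tumour from normal epithelium. Markers of infiltrating cells spread more widely. The 9 of 10 macrophage markers that were measured averaged 8.68 to 10.49 in the total tumours and 8.16 to 10.37 in the biopsies, and the 12 of 12 T and NK cell markers 6.29 to 9.25 in the total tumours and 5.28 to 7.45 in the biopsies. The biopsy of 37I1 was the lowest biopsy for both lists, and the total tumour of 31D3 the highest total tumour. It was also the lowest biopsy for the 7 of 7 fibroblast markers, which averaged 10.25 to 11.59 in the total tumours and 7.81 to 11.53 in the biopsies.

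No cytokine or chemokine gene passed the test of total tumours against biopsies, but the neutrophil attractants Cxcl2 and Cxcl6 and the interleukin Il1a had higher signals in the total tumours in 5 of 5 pairs. Cxcl2 differed by 0.76 (SE 0.167), Cxcl6 by 0.51 (SE 0.172) and Il1a by 0.41 (SE 0.132). Most other members had higher signals in the total tumours of 31D3 and 37I1 and lower ones in those of 32D1, 50I1 and 52I4. In limma with the tumour as a block, 0 of 37 members had an adjusted p under 0.05, and 0.00% of all genes did, with adjusted p values of the members between 0.549 and 0.997. An unadjusted p under 0.05 was reached by 3 of 37 members, all 3 with higher signals, against 5.18% of all genes in either direction and 2.60% in that direction. With no tumour block 1 member, Il1a, had such a p.

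Total tumours had the higher mean signal for 28 of 37 members, against 57.0% of all genes. The median difference of the members was 0.11, beside 0.03 over all genes. It was -0.01 without tumour 31D3 and 0.01 without tumour 37I1, and 0.34 without tumour 50I1. Signals were higher in 5 of 5 pairs for 4 of 37 members, against 3.55% of all genes, and lower in 5 of 5 pairs for 0 of 37, against 2.90%. The fourth of them was Lif, a cytokine of the interleukin-6 family, whose difference was 0.17 (SE 0.0814). The groups of arrays overlapped for every member, while 0.338% of all genes had non-overlapping groups with higher signals and 0.246% with lower ones.

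**Figure D1:**
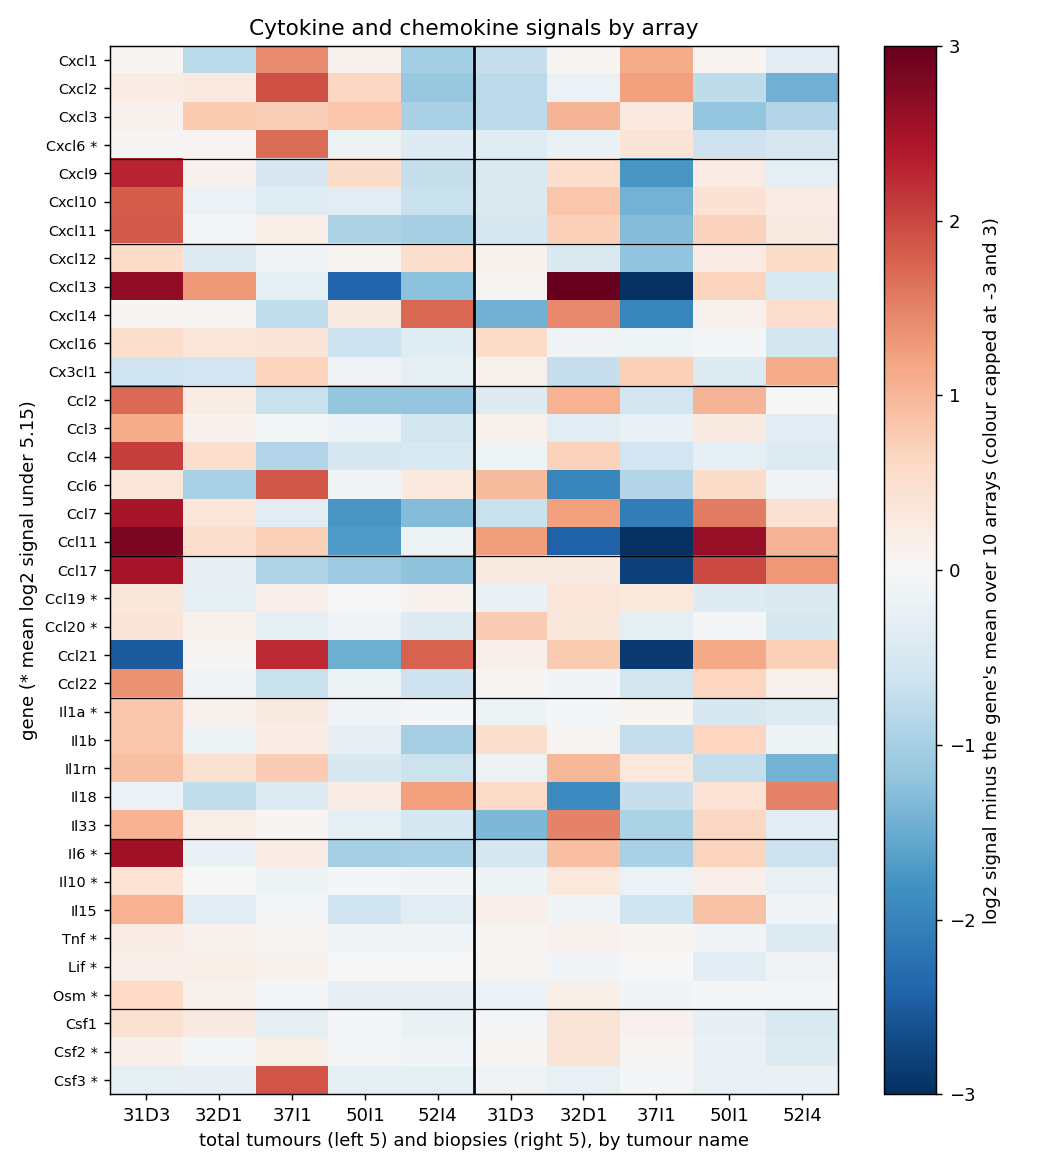
Log2 signal of each of the 37 genes on each array minus that gene's mean over the 10 arrays (colour, capped at -3 and 3), with the 5 total tumours left of the line and the 5 biopsies right of it. Asterisks mark the 11 genes with a mean log2 signal under 5.15, and total tumour 31D3 is the highest total tumour for 25 of 37 genes, and biopsy 37I1 the lowest biopsy for 16 of 37.

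The members spread widely over the arrays, and so did markers of infiltrating cells. The range over the 10 arrays reached 2 on the log2 scale in 22 of 37 members, against 9.88% of all genes. Among genes with a mean signal of at least 5.15 it did so in 19 of 26 members, against 11.7%. The widest ranges were those of Ccl11 at 7.51, Cxcl13 at 7.37, Ccl17 at 5.28, Ccl21 at 5.12, Ccl7 at 4.54 and Cxcl9 at 4.03. The same range was reached by 12 of 12 T and NK cell markers, 7 of 9 macrophage markers, 7 of 7 fibroblast markers and 7 of 7 mast cell markers, and by 11 of 30 receptors, 3 of 8 neutrophil markers and 0 of 7 mammary epithelium markers, so a wide range was not particular to cytokines and chemokines. No test was made of these shares, since genes are not independent replicates.

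The spread followed single arrays. Total tumour 31D3 had the highest signal of the 5 total tumours for 25 of 37 members, against 20.1% of all genes, and total tumour 52I4 the lowest for 17, against 14.6%. Total tumour 50I1 was the highest for 1, against 17.8%. Among the biopsies, that of 37I1 was lowest for 16 of 37 members, against 20.0% of all genes, and that of 32D1 highest for 17, against 23.2%. Within tumours, the late sample was above its own biopsy for 30 of 37 members in 31D3 and 29 in 37I1, where 53.8% and 46.4% of all genes were. It was above for 11 in 32D1, 13 in 50I1 and 15 in 52I4, where 52.7%, 54.2% and 55.6% of all genes were. A difference of at least 1 on the log2 scale was seen upward for 15 members in 31D3 and for 15 in 37I1, against 5.20% and 5.30% of all genes. It was seen downward for 9 members in 50I1, 6 in 52I4 and 5 in 32D1, against 4.16%, 2.22% and 1.39%. Differences of that size against the tumour's trend were fewer than those along it. They were downward for 1 member (2.70%) in 31D3 and 0 in 37I1, against 2.76% and 1.01% of all genes. Upward ones numbered 2 members (5.41%) each in 32D1, 50I1 and 52I4, against 1.25%, 1.27% and 2.61%. Those upward shares were above those of all genes. Each of these counts compares 1 array with 1 array and has no replicate check.

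**Figure D2:**
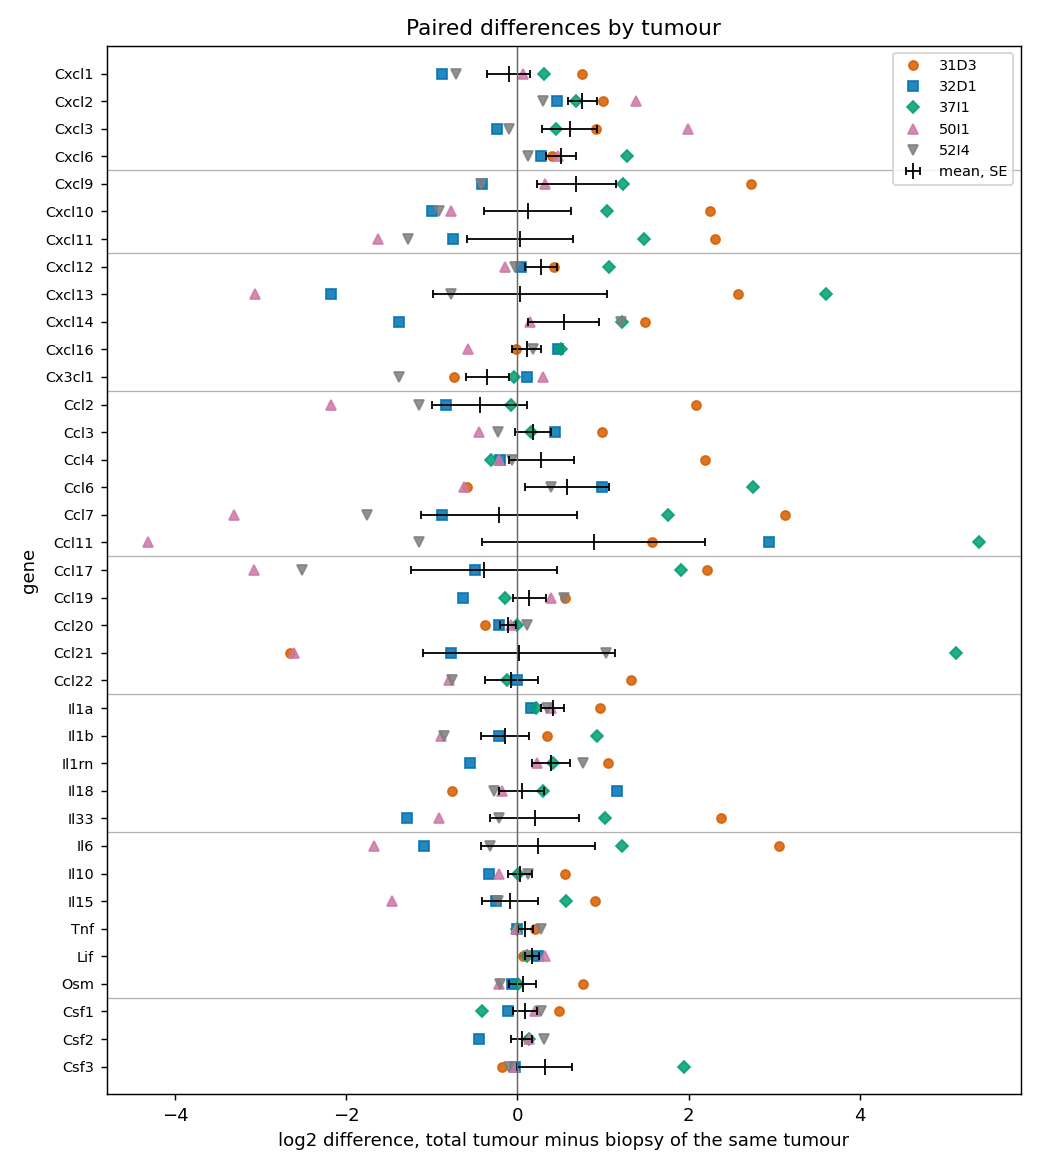
Log2 difference of the total tumour minus the biopsy of the same tumour for each gene (coloured symbols, 1 per tumour), with the mean over 5 tumours and its SE (black). For Cxcl2, Cxcl6, Il1a and Lif all 5 symbols lie right of 0, while for Ccl11 they run from -4.31 to 5.39.

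The neutrophil attractants Cxcl1, Cxcl2, Cxcl3 and Cxcl6, which all bind Cxcr2, had a median difference of 0.56. The pairs of 31D3, 37I1 and 50I1 had the late sample above the biopsy for 4 of 4 of these genes, and the pairs of 32D1 and 52I4 for 2 of 4. Cxcl2 had log2 signals of 5.40, 5.47, 7.09, 5.79 and 4.04 in the total tumours and 4.40, 5.01, 6.41, 4.41 and 3.74 in the biopsies. Tumour 37I1 was highest and 52I4 lowest in both groups, so the groups overlapped although each pair went the same way. The unadjusted p of Cxcl2 in limma was 0.00293 and the adjusted p 0.549. An exact sign-flip permutation over the 5 pairs gave p = 0.0625, two-sided, which is the smallest that 5 pairs allow. Any gene with all 5 pairs in 1 direction gets this value, as Cxcl6, Il1a and Lif did. The difference of Cxcl2 ranged from 0.61 without 50I1 to 0.88 without 52I4, and with no tumour block its unadjusted p was 0.221.

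Cxcl6 had log2 signals of 4.30, 4.36, 5.95, 4.12 and 3.89 in the total tumours and 3.90, 4.08, 4.67, 3.65 and 3.77 in the biopsies. Only total tumour 37I1 reached 5.15, and the difference was 0.32 without that tumour. Its unadjusted p was 0.0223 in limma (adjusted p 0.654), and the paired test named in the series text gave an unadjusted p of 0.0647. Cxcl3 had log2 signals of 6.87, 7.52, 7.47, 7.57 and 5.76 in the total tumours and 5.95, 7.76, 7.02, 5.58 and 5.86 in the biopsies, a difference of 0.61 (SE 0.321). The difference was 0.26 without 50I1, whose pair moved by 1.99, and 0.82 without 32D1. The probe set used for Cxcl3 is of a type whose probes can match related transcripts, and its other 4 probe sets had differences between 0.01 and 0.65. Cxcl1 did not share the direction. Its log2 signals were 7.86, 6.98, 9.21, 7.92 and 6.77 in the total tumours and 7.11, 7.86, 8.90, 7.87 and 7.49 in the biopsies, with a difference of -0.10 (SE 0.250) that was 0.10 without 32D1 and -0.31 without 31D3. As for Cxcl2, tumour 37I1 had the highest Cxcl1 signal in both groups.

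**Figure D3:**
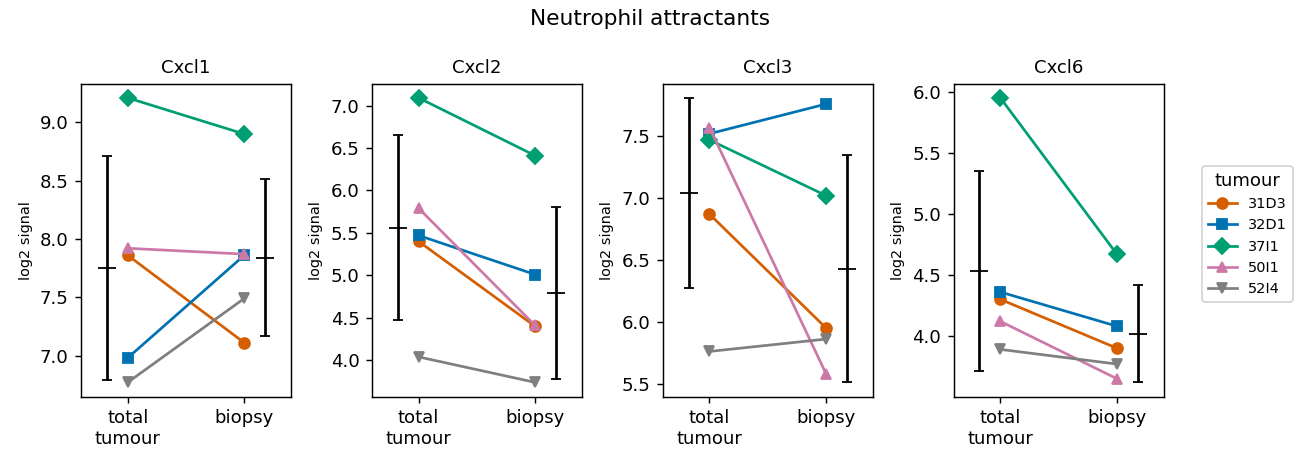
Log2 signals of the 4 neutrophil attractants, with lines joining the total tumour and the biopsy of 1 tumour and black bars giving mean ± SD (n = 5). Every line of Cxcl2 and Cxcl6 is higher at its total tumour end, and tumour 37I1 lies highest in Cxcl1, Cxcl2 and Cxcl6.

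The promoters of 3 of these genes are shown because they carry the same kind of element. Promoters of 27 of the 37 members were matched by symbol in a RefSeq table of the GRCr8 rat build. It covers 250 bases before and 50 after each gene's start. Cxcl3, the fourth neutrophil attractant, had no entry and was not searched. The same held for Ccl2, Ccl3, Ccl4, Ccl11, Il10, Lif, Osm, Csf1 and Csf3. On either strand, the NF-kappaB consensus of 10 letters was found in 8 of the 27, against 7.60% of 27457 promoters. These were Cxcl1, Cxcl2, Cxcl6, Cxcl10, Cxcl11, Ccl7, Ccl20 and Il6. NF-kappaB is the transcription factor that carries signals of Tnf and interleukin-1 to many inflammatory genes. The AP-1 motif TGANTCA was found in 7 of 27, against 7.33%, and the core of the interferon response element in 2 of 27, Cxcl10 and Ccl19, against 3.77%. A match describes the letters and not a bound site. The 100 bases before the start are given 5′ to 3′ on the gene's own strand, with NF-kappaB matches in capitals, which join where 2 matches overlap, for Cxcl1 (chr14:17479322-17479421, minus strand), Cxcl2 (chr14:17467256-17467355, minus strand) and Cxcl6 (chr14:17596418-17596517, minus strand).
Cxcl1: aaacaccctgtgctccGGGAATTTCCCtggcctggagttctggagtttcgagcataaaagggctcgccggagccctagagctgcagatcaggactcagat
Cxcl2: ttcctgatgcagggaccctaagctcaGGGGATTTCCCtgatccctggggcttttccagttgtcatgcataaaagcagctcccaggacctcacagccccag
Cxcl6: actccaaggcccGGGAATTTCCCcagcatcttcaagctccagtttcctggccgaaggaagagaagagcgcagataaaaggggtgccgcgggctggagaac
Counting the base before the start as -1, the match of Cxcl1 begins at -84, that of Cxcl2 at -74 and that of Cxcl6 at -88.

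Of the neutrophil markers 6 had higher and 2 lower mean signals in the total tumours, and their part in the neutrophil attractants was not tested. Of 10 such markers 8 were measured, with a mean log2 signal per array of 4.83 to 6.21 in the total tumours and 4.31 to 5.55 in the biopsies. Mmp8, Camp, Cxcr2 and Csf3r of this list were under 5.15 in mean signal. S100a8 and S100a9, which other cells can also make, were above it, and so were Mmp9 and Ncf1. Mmp9 and Ncf1 were the 2 with lower means in the total tumours, with differences of -0.15 (SE 0.542) and -0.03 (SE 0.164). S100a9, an abundant protein of neutrophils, differed by 1.60 (SE 0.394) and its partner S100a8 by 1.52 (SE 0.419), and neither passed (adjusted p 0.549 and 0.577 in limma). S100a9 differed by 0.85, 2.18, 2.83, 0.06 and 2.07, which is higher in 5 of 5 pairs, as for Cxcl2 and Cxcl6. The list as a whole did not do so, with median differences of 0.52, 0.51, 1.01, -0.29 and 0.27. In 50I1, 3 of the 8 markers were higher in the total tumour, where the neutrophil attractants had a median difference of 0.93. The pair of 37I1 was the widest for S100a9 and for Cxcl6, at 1.28, and the pair of 50I1 was the widest for Cxcl2, at 1.38, and the narrowest for S100a9. Csf3, the growth factor of granulocytes, stayed under 5.15 on 9 arrays, at 4.28, 4.32, 4.31 and 4.27 in the total tumours other than 37I1 and at 4.46, 4.35, 4.52, 4.35 and 4.37 in the biopsies. Total tumour 37I1 read 6.46, the same array that was highest for Cxcl1, Cxcl2 and Cxcl6.

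The Cxcr3 ligands Cxcl9, Cxcl10 and Cxcl11, which interferon gamma induces and which attract activated T and NK cells, split by tumour. All 3 were higher in the total tumours of 31D3 and 37I1 than in their biopsies, with median differences of 2.31 and 1.23, and the medians were -0.75 in 32D1, -0.78 in 50I1 and -0.92 in 52I4. Cxcl9 had log2 signals of 10.92, 8.75, 8.12, 9.19 and 7.91 in the total tumours and 8.18, 9.17, 6.89, 8.87 and 8.33 in the biopsies. Its difference was 0.69 (SE 0.466, adjusted p 0.790 in limma), and 0.18 without 31D3. Cxcl10 had log2 signals of 8.48, 6.49, 6.30, 6.33 and 5.99 in the total tumours and 6.23, 7.49, 5.25, 7.10 and 6.91 in the biopsies. Total tumour 31D3 stood above the other 4 total tumours for Cxcl10, which had a difference of 0.12 (SE 0.510), or -0.41 without 31D3 and -0.11 without 37I1. Cxcl11 had log2 signals of 7.85, 5.98, 6.20, 5.08 and 5.02 in the total tumours and 5.53, 6.73, 4.72, 6.71 and 6.29 in the biopsies, a difference of 0.03 (SE 0.614). In each of the 3 genes total tumour 31D3 was the highest of all 10 arrays and biopsy 37I1 the lowest.

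T and NK cell markers moved in the same tumours, and their part in the Cxcr3 ligands was not tested. None of the 12 was under 5.15 in mean signal, and their median differences were 1.68 in 31D3, 1.79 in 37I1, -0.27 in 32D1, -1.52 in 50I1 and -0.69 in 52I4. Cd3e, a chain of the T cell receptor complex, differed by 1.22, -0.52, 2.16, -1.80 and -0.95. Cxcr3 itself differed by 0.78, -0.61, 1.62, -1.24 and -1.38, with a mean log2 signal of 6.42 ± 1.08 in the total tumours and 6.59 ± 0.97 in the biopsies (SD, n = 5 each). The sign of Cd3e and of Cxcr3 in each pair was thus that of Cxcl10 and Cxcl11. Cxcl9 had the opposite sign in 50I1, at 0.32, and the same sign in the other pairs.

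Promoters of Cxcl10 and Cxcl11 are shown because both hold NF-kappaB matches (in capitals, as above), with 200 bases before the start for Cxcl10 (chr14:15988866-15989065, plus strand) and 100 for Cxcl11 (chr14:15973628-15973727, plus strand), in the GRCr8 build of RefSeq.
Cxcl10: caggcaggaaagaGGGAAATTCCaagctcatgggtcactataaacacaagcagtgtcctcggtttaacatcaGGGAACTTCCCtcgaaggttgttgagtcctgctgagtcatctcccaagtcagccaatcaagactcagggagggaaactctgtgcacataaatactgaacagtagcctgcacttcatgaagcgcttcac
Cxcl11: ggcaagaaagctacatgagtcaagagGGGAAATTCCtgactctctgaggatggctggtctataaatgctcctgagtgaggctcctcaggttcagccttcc
Cxcl10 holds one match that begins at -187 and a joined pair that begins at -128, and Cxcl11 holds one that begins at -74. The promoter of Cxcl9 held none of the 3 motifs in this window.

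**Figure D4:**
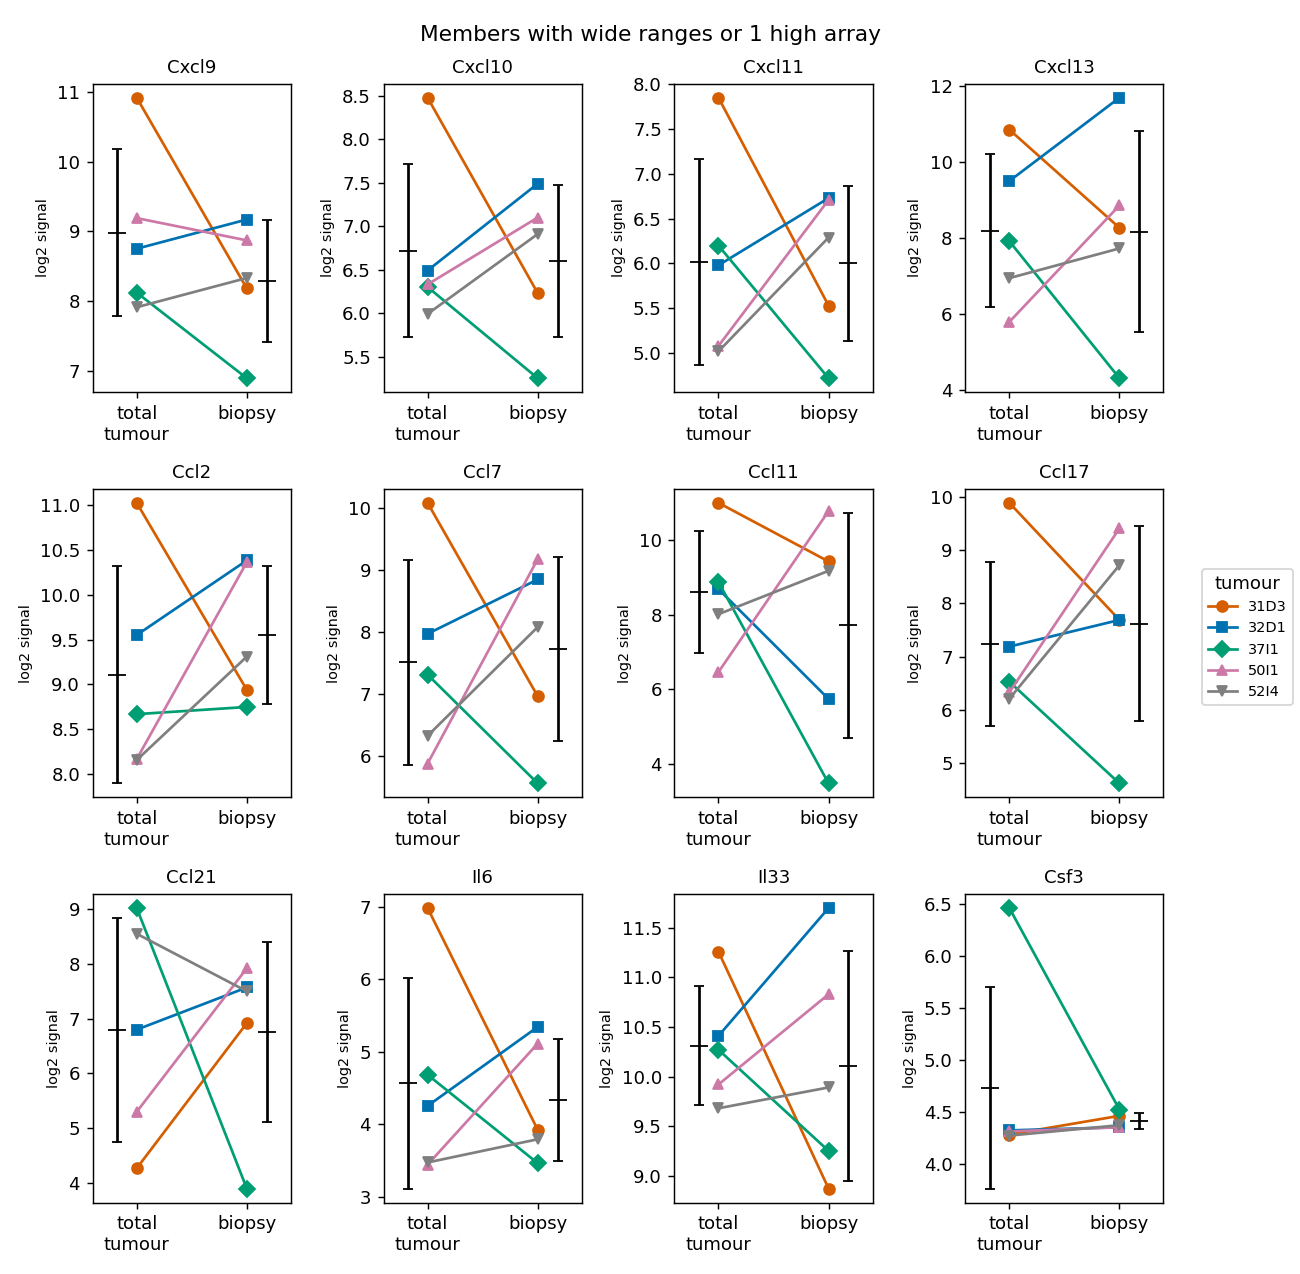
Log2 signals of 12 members chosen after their values were seen, with lines joining the total tumour and the biopsy of 1 tumour and black bars giving mean ± SD (n = 5). Lines of 31D3 and 37I1 are mostly higher at the total tumour end and those of 50I1 mostly higher at the biopsy end, and Csf3 exceeds 5.15 in total tumour 37I1 alone.

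Among attractants of monocytes and eosinophils, the median difference was 1.82 in 31D3 and 0.96 in 37I1, and -1.40 in 50I1, where 0 of 6 were higher in the total tumour. Ccl2, the main ligand of the monocyte receptor Ccr2, had log2 signals of 11.02, 9.55, 8.67, 8.17 and 8.16 in the total tumours and 8.94, 10.38, 8.75, 10.36 and 9.31 in the biopsies. It was higher in the total tumour only in 31D3, and its difference of -0.44 (SE 0.557) was -1.06 without that tumour and 0.00151 without 50I1. With all tumours its unadjusted p was 0.461 and its adjusted p 0.881 in limma. Ccl7, a second ligand of Ccr2, had log2 signals of 10.09, 7.97, 7.31, 5.87 and 6.32 in the total tumours and 6.96, 8.85, 5.55, 9.18 and 8.08 in the biopsies. Its paired differences ran from 3.13 in 31D3 to -3.31 in 50I1, with a mean of -0.21 (SE 0.910).

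Ccl11, or eotaxin, which attracts eosinophils and is made by fibroblasts, had the widest range of any member. Its log2 signals were 10.99, 8.68, 8.87, 6.46 and 8.01 in the total tumours and 9.42, 5.74, 3.48, 10.77 and 9.17 in the biopsies, a difference of 0.89 (SE 1.30). That difference was -0.24 without 37I1, whose pair differed by 5.39, and 2.19 without 50I1, whose pair differed by -4.31. Fibroblast markers had median differences of 0.86, -0.39, 2.71, -1.38 and 1.51, and their part was not tested. The paired differences of Ccl11 were 1.57, 2.94, 5.39, -4.31 and -1.15, with the sign of the markers in 31D3, 37I1 and 50I1 and the opposite sign in 32D1 and 52I4.

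Ccl6, a myeloid chemokine of rodents, had log2 signals of 8.68, 7.36, 10.19, 8.25 and 8.61 in the total tumours and 9.27, 6.37, 7.44, 8.87 and 8.22 in the biopsies. It differed by 0.58 (SE 0.486) and, unlike Ccl2 and Ccl7, was not higher in total tumour 31D3. Ccl3 and Ccl4, inflammatory chemokines of macrophages, differed by 0.18 (SE 0.210) and 0.28 (SE 0.377). Both were highest in total tumour 31D3, at 7.13 and 8.02, and without that tumour the differences were -0.02 and -0.19.

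Macrophage markers, none of the 9 under 5.15, had median differences of 0.69 in 31D3, -0.25 in 32D1, 1.81 in 37I1, -1.78 in 50I1 and -0.59 in 52I4, and their part in the monocyte attractants was not tested. Cd68, a lysosomal protein of macrophages, differed by 0.57, 0.04, 1.88, -1.45 and -0.40. Ccr2 differed by 1.11, -0.68, 1.29, -2.17 and -0.87, which is the sign of Ccl7 in every pair. Ccl2 had the opposite sign in 37I1, at -0.08, and the same sign in the other pairs.

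**Figure D5:**
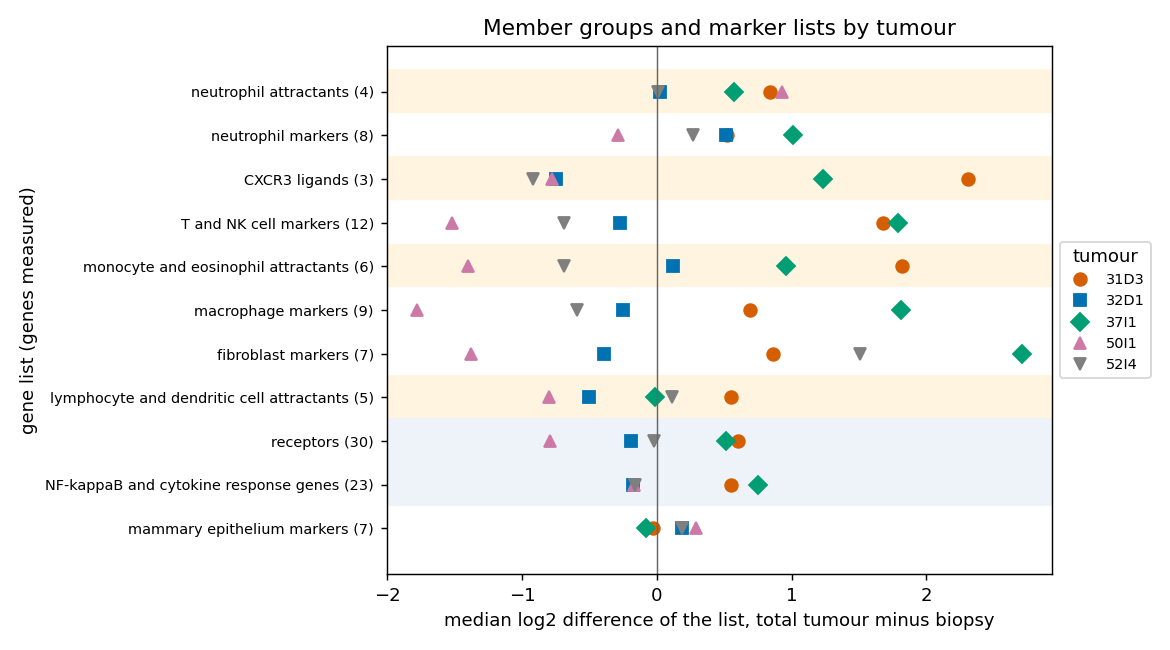
Median log2 difference, total tumour minus biopsy, of 4 member groups (orange bands), 5 marker lists (white) and the 2 pathway lists (blue), with 1 symbol per tumour and the number of genes measured in brackets. Tumours 31D3 and 37I1 lie right of 0 and 50I1 left of it in the Cxcr3 ligands, the monocyte attractants and the markers of T cells, macrophages and fibroblasts, while the neutrophil attractants of 50I1 lie at 0.93.

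The attractants of lymphocytes and dendritic cells had no common direction, with 2 of 5 higher and 3 of 5 lower in mean signal. Ccl17, a ligand of Ccr4 on T helper and regulatory T cells, had log2 signals of 9.89, 7.19, 6.53, 6.33 and 6.21 in the total tumours and 7.69, 7.69, 4.62, 9.41 and 8.72 in the biopsies. Its mean difference of -0.39 (SE 0.847) was -1.04 without 31D3 and 0.28 without 50I1. Ccl22, the other ligand of Ccr4, differed by -0.07 (SE 0.308) and was also highest in total tumour 31D3, at 7.10 where the other total tumours lay between 5.07 and 5.66.

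Ccl21, which guides naive lymphocytes and dendritic cells through Ccr7, went its own way. Its log2 signals were 4.27, 6.80, 9.02, 5.30 and 8.55 in the total tumours and 6.92, 7.57, 3.90, 7.92 and 7.50 in the biopsies, a difference of 0.02 (SE 1.12). In 31D3, where most members were higher in the total tumour, Ccl21 differed by -2.65. In 37I1 it differed by 5.12, and without that tumour the mean difference was -1.25. Ccl19, the second ligand of Ccr7, and Ccl20, the ligand of Ccr6, were under 5.15 in mean signal and differed by 0.14 (SE 0.193) and -0.11 (SE 0.0983).

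Cxcl13, the B cell attractant that binds Cxcr5, had log2 signals of 10.85, 9.50, 7.92, 5.80 and 6.95 in the total tumours and 8.27, 11.69, 4.32, 8.86 and 7.73 in the biopsies. The paired differences were 2.58, -2.18, 3.60, -3.06 and -0.78, with a mean of 0.03 (SE 1.02). A mean near 0 here is the balance of large opposite differences. Of 6 B and plasma cell markers 4 were measured, Cd79b and Ms4a1 under 5.15, and the list averaged 5.49 to 7.24 in the total tumours and 5.28 to 6.48 in the biopsies. The median difference of that list was positive in 31D3, 0.32 in 32D1, 0.41 in 37I1, -0.56 in 50I1 and -0.40 in 52I4. It had the sign of Cxcl13 in every tumour but 32D1, and the part of these cells in Cxcl13 was not tested.

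Among the remaining chemokines, which stroma and epithelium can make, Cxcl12, Cxcl16 and Cx3cl1 had ranges of 1.74, 1.17 and 1.79 over the 10 arrays and Cxcl14 one of 3.68. Cxcl12, which holds Cxcr4-bearing cells in stroma, differed by 0.27 (SE 0.187), and its other 2 probe sets by 0.12 and 0.22. Cxcl14, a chemokine of epithelia and fibroblasts, had log2 signals of 8.02, 8.02, 7.24, 8.25 and 9.70 in the total tumours and 6.53, 9.41, 6.01, 8.10 and 8.49 in the biopsies. It was higher in the total tumour in 4 of 5 pairs, with a difference of 0.54 (SE 0.418). With all 5 pairs its unadjusted p was 0.243 and its adjusted p 0.809 in limma. The difference was 1.02 without 32D1, the 1 pair of opposite sign. Cx3cl1, a membrane-bound chemokine for Cx3cr1, had log2 signals of 7.70, 7.72, 8.98, 8.20 and 8.03 in the total tumours and 8.44, 7.62, 9.02, 7.90 and 9.41 in the biopsies, a difference of -0.35 (SE 0.252). Cxcl16, also membrane-bound, differed by 0.11 (SE 0.170).

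In the interleukin-1 family, Il1a and Il1b are agonists of 1 receptor and Il1rn is its natural antagonist. Il1a had log2 signals of 4.66, 3.98, 4.14, 3.76 and 3.79 in the total tumours and 3.70, 3.83, 3.92, 3.37 and 3.44 in the biopsies. No array reached 5.15, so the pairs agree in sign at a level near background, and the 31D3 pair, at 0.96, was the widest. Its unadjusted p was 0.0174 and its adjusted p 0.621 in limma, the difference was 0.28 without 31D3, and the second probe set of Il1a differed by 0.15 (SE 0.105). Il1b did not share the direction, with a difference of -0.14 (SE 0.281) and paired differences of 0.35, -0.22, 0.93, -0.89 and -0.86. Il1rn had log2 signals of 7.66, 7.21, 7.52, 6.28 and 6.11 in the total tumours and 6.60, 7.76, 7.09, 6.05 and 5.34 in the biopsies. It was higher in the total tumour in 4 of 5 pairs, by 0.39 (SE 0.225) on average and by 0.62 without 32D1.

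Il33, which is held in epithelial and stromal cells and released on damage, and Il18 are further members of the interleukin-1 family. Il33 had log2 signals of 11.26, 10.41, 10.27, 9.92 and 9.68 in the total tumours and 8.87, 11.70, 9.25, 10.83 and 9.89 in the biopsies, a difference of 0.20 (SE 0.525) that was -0.34 without 31D3. Il18 had log2 signals of 11.06, 10.50, 10.85, 11.46 and 12.46 in the total tumours and 11.82, 9.34, 10.55, 11.64 and 12.73 in the biopsies, a difference of 0.05 (SE 0.261). For Il18 the order of the tumours was nearly kept, with 52I4 the highest and 32D1 the lowest in both groups. Il1rl1, the receptor of Il33, which mast cells carry, was lower in 5 of 5 pairs, with a difference of -0.73 (SE 0.278, adjusted p 0.691 in limma). Its paired differences were -0.09, -0.42, -0.01, -1.68 and -1.43. Mast cell markers, 7 of 7 measured and none under 5.15, averaged 7.27 to 10.10 in the total tumours and 8.56 to 10.68 in the biopsies, with median differences of -0.52, -0.15, -1.18, -1.26 and -1.27, and their part was not tested.

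Il6, a cytokine of the acute phase response, had log2 signals of 6.98, 4.25, 4.68, 3.44 and 3.47 in the total tumours and 3.92, 5.34, 3.46, 5.11 and 3.79 in the biopsies. Total tumour 31D3 was well above every other array, and biopsy 32D1 alone of the rest exceeded 5.15. The difference of 0.24 (SE 0.667) was -0.47 without 31D3. The 100 bases before its start (chr4:5894576-5894675, minus strand, GRCr8) are shown for the NF-kappaB match, in capitals, which begins at -68.
Il6: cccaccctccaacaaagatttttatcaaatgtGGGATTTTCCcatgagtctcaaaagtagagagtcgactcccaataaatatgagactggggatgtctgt
The paired differences of Il6 were positive in 31D3 and 37I1 and negative in the other 3 tumours.

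Tnf, Il10, Lif, Osm and Csf2 had mean signals under 5.15 and ranges of 0.62, 0.63, 0.49, 0.85 and 0.80 over the 10 arrays. Lif had log2 signals of 3.64, 3.65, 3.60, 3.48 and 3.49 in the total tumours and 3.56, 3.41, 3.49, 3.16 and 3.37 in the biopsies, an unadjusted p of 0.0751 in limma and of 0.0204 in the paired test named in the series text. Tnf, the central inflammatory cytokine, differed by 0.09 (SE 0.0878), and its second probe set by -0.26 (SE 0.132). At such levels the size of a difference in these 5 genes is likely to be understated. Il15, which sustains NK and memory T cells, was at 8.48 in total tumour 31D3 and between 6.84 and 7.40 in the other total tumours, with a difference of -0.09 (SE 0.326). Csf1, the growth factor of macrophages, differed by 0.09 (SE 0.142), and its 4 probe sets split, 2 with higher and 2 with lower means in the total tumours.

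The receptors of these ligands, 30 of 36 measured, had a median difference of 0.08, with 16 higher and 14 lower. An unadjusted p under 0.05 was reached by 1 of 30, Il1rl1, against 5.18% of all genes, and by 0 after adjustment. Ackr3, a scavenging receptor of Cxcl12, had the next smallest p, with a difference of 0.48 (SE 0.210, adjusted p 0.729 in limma). Cxcr1, Cxcr2, Ccr3, Ccr4 and Csf3r were under 5.15. By tumour, 26 of 30 receptors were higher in the total tumour in 31D3 and 24 in 37I1, against 53.8% and 46.4% of all genes. In 32D1, 50I1 and 52I4 the counts were 12, 4 and 14, against 52.7%, 54.2% and 55.6%.

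Genes that NF-kappaB and cytokines induce or that carry their signals, 23 of 25 measured, had a median difference of 0.09, with 16 higher and 7 lower. Sod2, a mitochondrial superoxide dismutase, differed by 0.48 (SE 0.186, adjusted p 0.693 in limma) and Irf1, a transcription factor of the interferon response, by 0.35 (SE 0.142, adjusted p 0.717). Both had higher signals in the total tumour in 4 of 5 pairs. They were the 2 of 23 at an unadjusted p under 0.05, against 5.18% of all genes. The count of higher genes was 22 of 23 in 31D3 and 21 in 37I1, where 53.8% and 46.4% of all genes were higher. It was 7, 5 and 8 in 32D1, 50I1 and 52I4, where 52.7%, 54.2% and 55.6% were. Ligands, receptors and response genes each had most members higher in the total tumours of the same 2 tumours.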

How the data were processed

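The deposited table holds log2 signals of probe sets on 10 Affymetrix rat arrays, normalized by the authors with RMA, per the submitters' processing notes. RMA puts all arrays on 1 distribution and so removes a shift shared by most transcripts. Values of 2.34 to 14.26 gave the scale as log2, and the RMA version is not given in the sources used here. Array medians lay between 5.99 and 6.11, and array correlations between 0.952 and 0.989. Of 31099 rows, 57 controls were left out, and 20826 of the remaining 31042 probe sets had 1 gene in the platform annotation. Precision is limited by having 5 arrays a group.

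The comparison of total tumours with biopsies was fitted over 31042 probe sets without a filter, in limma 3.58.1 (lmFit, eBayes; R 4.3.3), and each tumour was a block, with Benjamini-Hochberg adjustment and a threshold of 0.05. The series text names a paired test in GeneSpring GX 7.3, and the labels give both groups the same tumour names. Deviations from the group means correlated within tumours at 0.18, 0.28, 0.30, -0.18 and 0.32. The fit was tested on simulated data. The members and lists were chosen with earlier results of these data known. Values on every array were given for members with an unadjusted p under 0.05, the 12 largest mean differences and the 6 widest ranges. Cxcl1, Cxcl10, Cxcl11, Il6, Il18, Il33, Lif and Csf3 were added after their values were seen, to complete their groups or for 1 high array. So were Cxcr3, Ccr2, Mmp9 and Ncf1. Of each other list, 2 genes with the smallest p could be named, with S100a8, S100a9, Cd68 and Cd3e as markers. Motifs were searched in RefSeq promoters of build GRCr8. Alternatives are given in the closing section.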

Additional observations from a re-analysis of the deposited data

Results flagged for a closer look

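In 7 of 74 groups of 5 arrays, 1 array stood apart from the other 4 by most of the group's range. This was so for 6 of 37 members in the total tumours, where 6.34% of all genes had such an array, and for 1 of 37 in the biopsies, where 6.12% had. Chance gives about 1 in 20.

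Total tumour 31D3 stood above the other total tumours for 4 members. It read 8.48 for Cxcl10 (others 5.99 to 6.49), 9.89 for Ccl17 (others 6.21 to 7.19), 7.10 for Ccl22 (others 5.07 to 5.66) and 3.94 for Il10 (others 3.36 to 3.50), the last under 5.15. Total tumour 37I1 stood above the others at 5.95 for Cxcl6 (others 3.89 to 4.36) and 6.46 for Csf3 (others 4.27 to 4.32). Biopsy 37I1 stood below the other biopsies for Ccl21, at 3.90 (others 6.92 to 7.92).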

How the results depend on the processing

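No member passed an adjusted p under 0.05 in limma or under any of the 12 alternatives, one of them the paired test of the series text, and the adjusted p was nearest to it at 0.489, when 37I1 was left out. The number with an unadjusted p under 0.05 was 1 with the dimmest 40% left out, where 26 members were tested, 1 with no replicate block, and 3 to 5 with a tumour left out (5 without 32D1). The median difference of the members lay between 0.10 and 0.15 under the other scalings, tests and summaries, and between -0.01 (without 31D3) and 0.34 (without 50I1) with a tumour left out. Of 248 member differences under settings that kept all tumours, 246 kept their sign. The exceptions were Il10 at -0.03 with quantile normalization and Tnf at -0.09 with the mean of probe sets, and the cause was not tested. Most of the 248 could not have changed sign. With every tumour in both groups, the fit without a block, the paired test, the intensity trend and the signal filter return the same difference. The mean of probe sets could move only the 10 members with several probe sets. Quantile normalization and median centring could move every member. With a tumour left out, 34 of 185 turned sign, in 22 members. The lowest and highest difference of each such member with a tumour left out is given here. These were Ccl11 -0.24 (without 37I1) to 2.19 (without 50I1), Ccl17 -1.04 (without 31D3) to 0.28 (without 50I1), Ccl2 -1.06 (without 31D3) to 0.00151 (without 50I1), Ccl21 -1.25 (without 37I1) to 0.69 (without 31D3), Ccl22 -0.42 (without 31D3) to 0.11 (without 50I1) and Ccl3 -0.02 (without 31D3) to 0.34 (without 50I1). They were also Ccl4 -0.19 (without 31D3) to 0.43 (without 37I1), Ccl7 -1.05 (without 31D3) to 0.56 (without 50I1), Csf1 -0.01 (without 31D3) to 0.21 (without 37I1), Csf2 -0.01 (without 52I4) to 0.18 (without 32D1), Csf3 -0.09 (without 37I1) to 0.44 (without 31D3) and Cxcl1 -0.31 (without 31D3) to 0.10 (without 32D1). Further ranges were Cxcl10 -0.41 (without 31D3) to 0.40 (without 32D1), Cxcl11 -0.54 (without 31D3) to 0.44 (without 50I1), Cxcl13 -0.86 (without 37I1) to 0.80 (without 50I1), Il10 -0.11 (without 31D3) to 0.12 (without 32D1), Il15 -0.34 (without 31D3) to 0.25 (without 50I1) and Il18 -0.23 (without 32D1) to 0.25 (without 31D3). The remaining ranges were Il1b -0.40 (without 37I1) to 0.05 (without 50I1), Il33 -0.34 (without 31D3) to 0.57 (without 32D1), Il6 -0.47 (without 31D3) to 0.72 (without 50I1) and Osm -0.11 (without 31D3) to 0.13 (without 50I1 or 52I4). Csf1 and Tnf depended on the probe set. Low array signal limits the 11 members under 5.15, a value set by the dimmest 40% of probe sets and not by a background measurement.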

Other observations

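Of the 37 members, 10 had several probe sets, and in 2 of them, Csf1 and Tnf, the probe sets differed in sign. The 5 probe sets of Cxcl3 had differences of 0.61, 0.41, 0.65, 0.20 and 0.01, and the last 2 of these had mean signals of 4.09 and 2.99. Both probe sets of Cxcl9 had wide ranges over the 10 arrays, 4.03 and 4.07, with differences of 0.69 and 0.75. The second probe set of Cxcl14, at a mean signal of 4.57, had a range of 0.70 where the first had 3.68.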
